A study of Rattus norvegicus with 4 samples.

Results

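The beta2 integrins of NR8383 cells were described from the array probes that carry the names Itgam, Itgal, Itgad and Itgb2, or an older rat alias of these. The rule found 5 probes, 2 for Itgam and 1 for each of the other genes, so the 4 genes were described out of 21094 named genes on the array. The genes were selected on the levels and detection flags of these same arrays, Itgam for its spread between them, and their values are therefore given as a description with no test. NR8383 is a macrophage line established from the lung lavage of a normal rat, and per the labels the cells were taken after 20 passages and fed a culture medium that held 2 mM glutamine and 15% serum. The 4 samples are replicates of 1 group, the submerged control, for which the series gives both 4 h of submerged incubation and 48 h after seeding. No second condition was analysed here, so the question is how far these genes were detected and how far their levels differed between replicate cultures.

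Beta2 integrins are adhesion receptors of leukocytes, each made of 1 alpha chain paired with the shared beta chain that Itgb2 encodes. The chain encoded by Itgam (CD11b) forms complement receptor 3, through which macrophages bind complement-coated particles and fibrinogen, and that of Itgal (CD11a) forms LFA-1, which binds ICAM molecules on other cells. Itgad (CD11d) encodes a further alpha chain that is found on some tissue macrophages. An alpha chain reaches the cell surface only when paired with the beta chain, and signals from inside the cell, passed on by talin and kindlin, switch the receptor to its binding state.

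The probes show which stretch of each transcript was read. The following 5 are printed because 4 of them cover a similar stretch of alpha chain transcripts, and their letters can be set side by side. Capitals mark the run of 8 bases that those 4 have in common, and the Itgad probe, which lacks it, is given for comparison.
Itgam A_43_P15993: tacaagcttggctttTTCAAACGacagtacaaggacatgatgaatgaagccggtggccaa
Itgam A_44_P1160533: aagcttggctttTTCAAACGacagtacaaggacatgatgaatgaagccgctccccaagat
Itgal A_44_P452222: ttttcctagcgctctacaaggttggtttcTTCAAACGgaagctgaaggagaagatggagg
Itgax A_64_P120479: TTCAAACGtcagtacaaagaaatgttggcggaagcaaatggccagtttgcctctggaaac
Itgad A_44_P110788: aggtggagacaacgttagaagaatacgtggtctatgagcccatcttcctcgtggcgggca

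Of these, 3 belong to the probes found by the rule. The other two, A_44_P1160533 and A_64_P120479, carry Ensembl transcript names on the array, and its descriptions name them Itgam and Itgax. They were added after their values were seen and are described apart. Without gaps, the Itgam probe A_43_P15993 matched the Itgal probe at 34 of 46 aligned bases and the Itgax probe at 34 of 45, with no shared run longer than 8 bases. It shared a run of 49 bases with A_44_P1160533, so these 2 are not independent readings of Itgam. The second probe found by the rule for Itgam, A_44_P1161690, had no run of more than 6 bases in common with the other Itgam probes.

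On the rn4 build, to which the files' coordinates refer, the Itgam probes lie on chromosome 1 at 187385032 to 187385565 (A_43_P15993) and 187385777 to 187385836 (A_44_P1161690). The first spans 534 bases of genome with 60 bases of probe and so crosses an intron. The Itgad probe, at 187462990 to 187463537 on the same chromosome, does so over 548 bases, and the Itgal probe, at 186594579 to 186597988, over 3410 bases. The Itgb2 probe lies on chromosome 20 at 11446736 to 11446795. No exon or UTR annotation of that build was used.

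The 75th percentile of the processed signal, by which each array was scaled, lay between 958 and 1489 fluorescence units, and 20170 to 22415 of 45598 probes were detected on an array. A level below is the log2 processed signal minus that percentile, and a probe was called detected where its spot was flagged well above background. Each probe found by the rule was printed on 1 spot per array, and none of these spots was flagged as an outlier. Levels of different probes depend on the probe as well as on the transcript and are not ranked here.

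Of the 5 probes, 4 were detected on all 4 arrays, as were 42.5% of all probes. They represent Itgb2, Itgam and Itgal, which is 3 of 4 genes, against 50.9% of all named genes. The Itgad probe was detected on 3 arrays and fell below the flag on replicate 3.

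Itgb2, the shared beta chain, gave processed signals of 3607, 4843, 3193 and 3748 units on replicates 1 to 4. Its levels were 1.45, 1.70, 1.44 and 1.97, a mean of 1.64 ± 0.25 (SD, n = 4). Replicate 4 was highest and replicates 1 and 3 lay close together at the low end, within a 1.44-fold range. At this signal the typical SD between arrays was 0.095 log2 units in limma's fit over all 19400 probes detected on every array. The SD of Itgb2 was 2.63 times that value. Its log2 range of 0.53 was 0.26 without replicate 4 and 0.85 when the arrays were scaled on spike-in controls.

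Itgam was read at 491, 1012, 391 and 937 units by A_44_P1161690, or levels of -1.42, -0.56, -1.59 and -0.03. Its other probe, A_43_P15993, gave 141, 315, 129.8 and 261 units, or levels of -3.23, -2.24, -3.18 and -1.87. Both probes were higher on replicates 4 and 2 than on replicates 1 and 3. The difference between them stayed between 1.59 and 1.84 log2 units on every array, so they moved nearly in parallel. Averaged over both probes, Itgam lay at -2.33, -1.40, -2.39 and -0.95 on replicates 1 to 4, a mean of -1.77 ± 0.71 (SD, n = 4) and a 2.70-fold range. The error that the scanner software gives for a spot was between 10.0% and 10.7% of the signal for these probes, and it covers the reading of a spot, not the culture or the preparation of the RNA. In RNA from whole cultures, fewer cells with the transcript and less transcript per cell cannot be told apart.

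The SD of A_44_P1161690 was 0.74 log2 units, 6.48 times the typical SD at its signal, and that of A_43_P15993 was 0.68, or 4.44 times. Over all genes, limma's test of a probe's variance against the typical one called 33 of 19400 probes, or 0.17%. The beta2 integrin probes had 0 calls, from which nothing is read, since they were chosen on these values. In simulated data the test recovered 0% of probes whose SD was raised 4 times and 42.5% of those raised 8 times. These multiples are of each simulated probe's own SD, which varied around the typical one, so they are not the same measure as the ratios above.

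**Figure D1:**
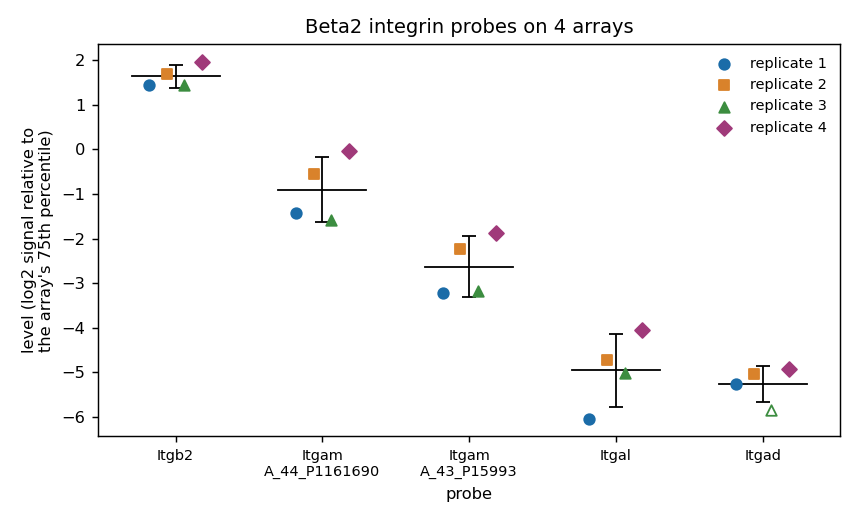
Level of each beta2 integrin probe (log2 signal relative to the array's 75th percentile, vertical axis) on replicates 1 to 4, with the mean as a bar and the SD as whiskers; the open symbol is a spot not well above background. Both Itgam probes sit higher on replicates 4 and 2 than on 1 and 3, and Itgal is lowest on replicate 1, at -6.04.

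Itgal, the LFA-1 alpha chain, was read close to background at 20.0, 56.3, 36.4 and 57.6 units on replicates 1 to 4, but was flagged well above background on each. Its levels were -6.04, -4.73, -5.02 and -4.06, with a mean of -4.96 ± 0.83 (SD, n = 4). Replicate 1 was lowest and replicate 4 highest, and the range was 3.97-fold. The range was 1.95-fold without replicate 1 and 2.49-fold without replicate 4, and it was 1.95-fold with normexp, a model-based background correction. The software's error on these spots was larger, from 12.1% to 19.9% of the signal. The typical SD at this signal was 0.27, and that of Itgal was 3.08 times as large.

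Itgad, the CD11d alpha chain, gave signals of 34.3, 45.1, 20.5 and 31.2 units, or levels of -5.26, -5.04, -5.84 and -4.94. Replicate 3, on which it was not well above background, was lowest, and the remaining arrays lay within 0.32 log2 units of each other. Its error was between 14.6% and 27.0% of the signal. Because it was not detected on every array, Itgad did not enter the variance test.

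**Figure D2:**
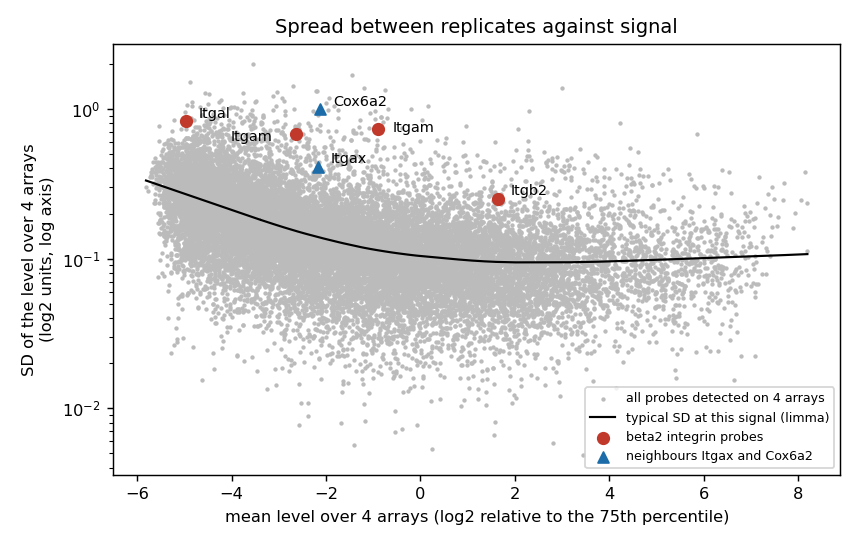
SD of the level over 4 arrays (vertical, log axis) against the mean level (horizontal) for the 19400 probes detected on all arrays in grey, with the typical SD fitted by limma as a line. The 4 beta2 integrin probes in red lie above the line, as do Itgax and Cox6a2 in blue.

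The ratio of an alpha chain to Itgb2 on the same array does not depend on any single factor by which the whole array is scaled. Itgam minus Itgb2, centred on its own mean, was -0.37, 0.31, -0.42 and 0.49 log2 units on replicates 1 to 4, a 1.87-fold range. Itgam thus kept higher values on replicates 2 and 4 after the beta chain was taken off. Itgal minus Itgb2 was -0.90, 0.17, 0.15 and 0.58, a 2.78-fold range in which replicate 1 was low. These ratios do depend on the background correction. With normexp, a model-based correction, Itgal centred on its own mean was -0.42, -0.06, -0.05 and 0.54. Itgb2 was then -0.19, 0.09, -0.19 and 0.29, so replicate 1 of Itgal stood less far apart. Itgad minus Itgb2 was 0.20, 0.17, -0.37 and 0.01 on replicates 1 to 4. On replicate 3 the Itgad spot was not well above background, and its low value pulled down the mean on which all 4 were centred.

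Which array was highest did depend on the scale. When the arrays were scaled on 8 spike-in control probes, the spike-ins lay 1.86 log2 units above the 75th percentile on replicate 1 and 2.85 above it on replicate 4. Under this scale Itgam was highest on replicate 2, at 0.76 above its mean, followed by replicate 4 at 0.22, replicate 1 at -0.16 and replicate 3 at -0.82. Itgb2 then lay below its mean on replicate 4 (-0.26), where the 75th percentile had placed it above (0.33). The range of Itgam was 2.99-fold with the spike-ins and 2.26-fold with normexp.

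**Figure D3:**
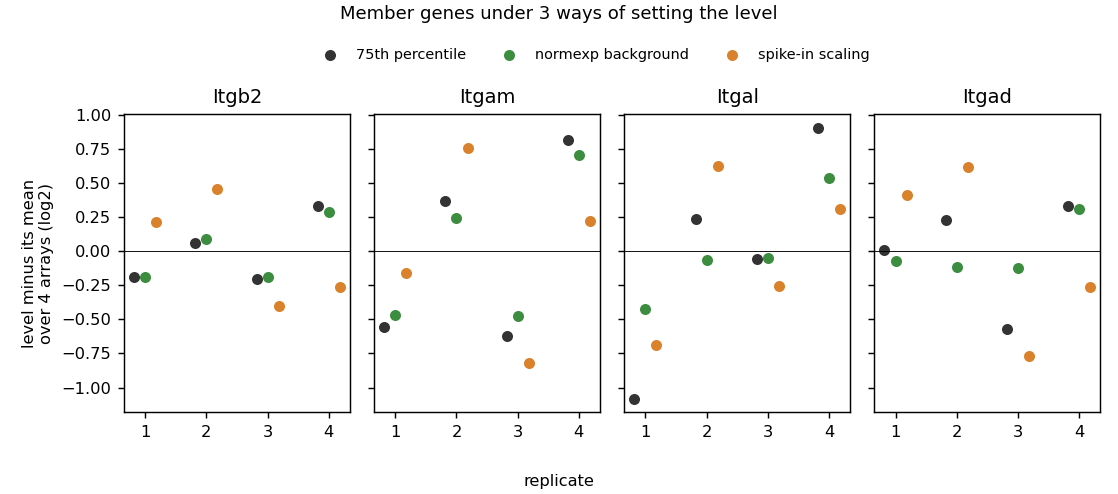
Level of each gene minus its mean over 4 arrays (log2 units, vertical) on replicates 1 to 4 under the 75th percentile, the normexp background correction and the spike-in scale. Itgam lies above its mean on replicates 2 and 4 under all 3, while Itgb2 changes side on replicate 4 under the spike-in scale.

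The genes whose profile over the 4 arrays was most like that of Itgam were sought among 2782 other named genes with at least 2 detected probes. Likeness was the root mean square difference between centred profiles, for which the median of these genes was 0.61 log2 units and a flat profile also gave 0.61. The nearest was Cxcl3, a chemokine that attracts neutrophils, at 0.17, followed by the calcium-activated potassium channel gene Kcnn4 at 0.17. The nucleoside transporter gene Slc28a2 came next at 0.20. Cox6a2, a subunit of cytochrome c oxidase found in heart and skeletal muscle, lay at 0.26. Slamf6, a receptor known from lymphocytes, was the fifth, at 0.33. Cxcl3 lay at -5.18, -4.70, -5.50 and -4.19 on replicates 1 to 4, and Kcnn4 at -4.51, -4.06, -4.71 and -3.35. The levels of Cxcl3 fall within the range of Itgal, which was read close to background, and those of Kcnn4 overlap it. Each of the 5 genes was highest on replicate 4, then 2, 1 and 3, as was Itgam. Since they were picked for likeness to Itgam, this shared order follows largely from the choice. A profile over 4 arrays holds few values, and no test was made.

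Cox6a2 is also a neighbour of the Itgam family. In the RefSeq annotation of GRCr8 the order of genes along chromosome 1 is Itgam, Itgax, Itgad and Cox6a2, with no other gene listed between them. On rn4 the mapped Cox6a2 probe, at 187464580 to 187464639, begins 1043 bases past the end of the Itgad probe. The probes within 100 kb of A_44_P1161690 were therefore examined, a window chosen after these values were seen. It held 10 probes, of which 6 were detected on all arrays, the Itgad probe on 3, and 3 on none.

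The third Itgam probe, A_44_P1160533, gave levels of -2.85, -1.70, -2.61 and -1.37 on replicates 1 to 4. With it included, the range of Itgam was 2.65-fold. Itgax, which encodes the alpha chain CD11c, is known from dendritic cells and alveolar macrophages. Its probe gave 234, 329, 218 and 316 units, or levels of -2.49, -2.18, -2.44 and -1.60, an SD of 0.41 and a 1.86-fold range. Replicate 4 was highest and replicate 2 next, with replicates 1 and 3 close together at the low end.

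The mapped Cox6a2 probe gave 190.2, 503, 136 and 476 units, or levels of -2.79, -1.57, -3.12 and -1.01, a 4.31-fold range. It was high on replicates 4 and 2, as the likeness to Itgam for which Cox6a2 was picked above requires, and its range was wider. LOC102556076, an uncharacterised locus at 187306619 to 187306678, lay at -4.59, -4.91, -5.05 and -4.76, with replicate 1 highest and an SD of 0.20. When all 19398 other detected probes were ranked by likeness to Itgam, A_44_P1160533 ranked 1, Cox6a2 32 and Itgax 70, while LOC102556076 ranked 10747. Itgal ranked 294 and Itgb2 329. Ranks at this level are descriptions, and whether neighbourhood on the chromosome had any part in them was not tested.

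**Figure D4:**
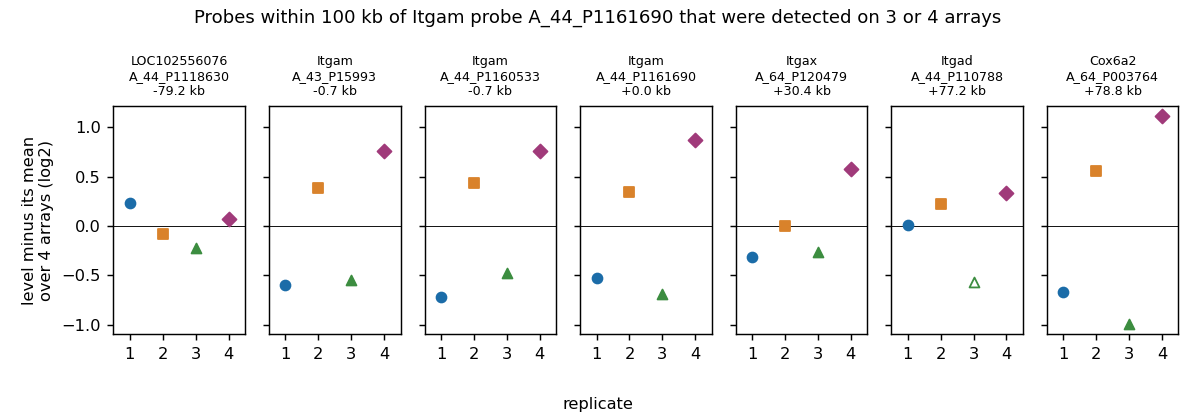
Level minus its mean over 4 arrays (log2 units, vertical) on replicates 1 to 4 for the 7 probes within 100 kb of Itgam probe A_44_P1161690 that were detected on at least 3 arrays, in their order along the chromosome; an open symbol is a spot not well above background. The 3 Itgam probes, Itgax and Cox6a2 are highest on replicate 4, and LOC102556076 is highest on replicate 1.

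The promoter of Itgam is shown because Spi1 (PU.1), a myeloid factor known to bind there in human cells, recognises a purine-rich core. The following 300 bases, from RefSeq on GRCr8, chromosome 1, plus strand, 192089342 to 192089641, run from 250 bases before the gene start to 50 after it. GAGGAA and its reverse complement TTCCTC are in capitals.
Itgam promoter: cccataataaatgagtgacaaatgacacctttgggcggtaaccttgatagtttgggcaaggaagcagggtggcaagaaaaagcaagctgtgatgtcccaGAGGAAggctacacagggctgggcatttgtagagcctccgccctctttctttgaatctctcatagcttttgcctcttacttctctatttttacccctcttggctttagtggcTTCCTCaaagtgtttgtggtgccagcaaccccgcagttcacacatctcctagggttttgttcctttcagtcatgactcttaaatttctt
The window held 2 copies, the nearer beginning 39 bases before the gene start, and 27.6% of 33469 rat promoters of this length held at least 1 on either strand. The same window of Itgax held 0 copies. A match is a string of letters and does not show binding, and its absence says nothing of the factor.

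Of the genes known to act on Itgam transcription, 6 of 8 with a probe were detected on all arrays, against 50.9% of all named genes. Spi1 lay at -0.37, -0.30, -0.49 and -0.58 on replicates 1 to 4, a mean of -0.43 ± 0.12 (SD, n = 4). Any relation of its level to that of Itgam was not tested. Sp1 had a level of -0.23 ± 0.11 and Cebpb of 4.05 ± 0.11 (SD, n = 4). Cebpa was detected on 1 array and Gfi1, a repressor in myeloid cells, on none.

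Ligands of beta2 integrins were detected in 5 of 10 cases, close to the share over all genes. Icam1, the main partner of LFA-1, lay at 1.90 ± 0.03 and Icam2 at -2.39 ± 0.08. Icam5, known from neurons, was detected at -4.54 ± 0.18 and Icam4, of red cells, on 3 arrays. Thy1, which binds the CD11b receptor in human cells, had 1 of its 2 probes detected on all arrays, and only that probe was tested. It passed the variance test (limma adjusted p = 0.036), at -1.55, -1.67, -3.28 and -0.81. The test called 0 probes of any gene without replicate 3, and likewise without the robust step or the trend of the fit. It also called 0 at a threshold of 0.01, so Thy1 passed under none of these settings. It was lowest on replicate 3 and highest on replicate 4.

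Partner receptors at the membrane were detected in 8 of 8 cases, where the share over all named genes was 50.9%. The Fc receptors Fcgr1a, Fcgr2b and Fcgr3a lay at 2.13 ± 0.14, 2.07 ± 0.19 and 2.85 ± 0.15, and the adaptor Fcer1g at 4.85 ± 0.03. Genes that activate the integrin from inside were detected in 11 of 12 cases. The talin gene Tln1 lay at 2.99 ± 0.12, the kindlin genes Fermt3 and Fermt2 at 0.09 ± 0.07 and -3.07 ± 0.11, and the GTPase gene Rap1a at -2.67 ± 0.08. Rasgrp2, an exchange factor for Rap1 in platelets and neutrophils, was detected on no array.

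Signalling genes behind the receptor gave 11 of 12, beside 50.9% of all named genes. The kinase genes Syk and Lyn lay at 0.63 ± 0.13 and 2.43 ± 0.08, and Src itself was detected on no array. Fgr, a Src-family kinase of myeloid cells, lay at -0.69, -0.23, -0.78 and -0.01, in the same order of replicates as Itgam. Other list genes shared this order, among them Cd14 of the partner receptors, Coro1a and Pxn of the cytoskeletal link and the cell type markers Camp and Lck. The variance of Fgr did not pass (unadjusted p = 5.8e-03, limma adjusted p = 0.29). That of Coro1a, at 1.77, 2.12, 1.54 and 2.29, did not pass either (unadjusted p = 4.1e-03, limma adjusted p = 0.25). Genes of the cytoskeletal link gave 8 of 8, with Vcl at -1.21 ± 0.07, Pxn at -1.39 ± 0.15, Actn1 at 0.15 ± 0.08 and Flna at 1.78 ± 0.14.

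Of the other integrin subunits of leukocytes 7 of the 10 matched to a probe by name were detected, a count that leaves out Itgax, whose probe is named only in the array's descriptions. The beta chain gene Itgb1 lay at 2.88 ± 0.02, and its alpha partners Itga4, Itga5 and Itga6 at -0.70 ± 0.08, -2.64 ± 0.23 and -0.69 ± 0.04. Itgb5, Itgb7 and Itga9 were detected on no array. Over all 7 lists 56 of 68 genes were detected (82.4%), against 50.9% of all named genes. The median SD of these 56 genes was 0.086 log2 units. Only 1 gene, Thy1, passed the variance test, against 0.17% of all probes. The median SD over all detected probes was 0.13. The list genes were read from their brightest probe and the figure for all genes from every probe, so the medians are not on the same footing.

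**Figure D5:**
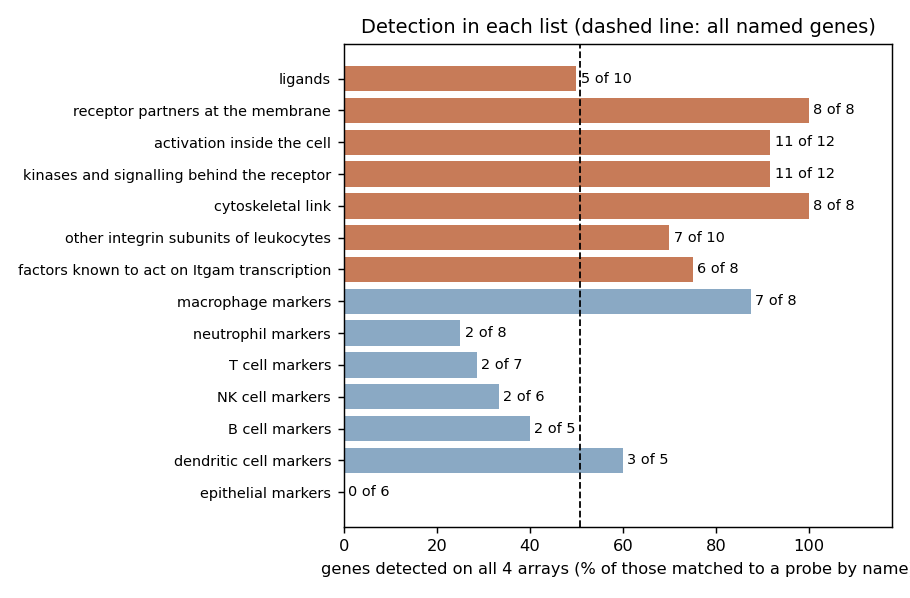
Share of each list's genes detected on all 4 arrays (horizontal, percent of genes matched to a probe by name, without Itgax), with the count beside each bar; orange bars are lists around beta2 integrins, blue bars are markers of cell types, and the dashed line marks the 50.9% of all named genes. All 8 receptor partners and all 8 cytoskeletal genes were detected, and 0 of 6 epithelial markers.

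Since neutrophils, lymphocytes and dendritic cells also carry beta2 integrins, markers of these cells were read beside the macrophage markers. The share to set beside each count is the 50.9% of all named genes detected on all arrays. Of 8 macrophage markers 7 were detected, with Cd68 at 4.74 ± 0.05, Lyz2 at 6.67 ± 0.06 and Csf1r at -0.02 ± 0.10, and Adgre1 on 1 array. Neutrophil markers gave 2 of 8, Mpo at -4.89 ± 0.30 and Camp at -1.06 ± 0.20. S100a8 was detected on 3 arrays, and Elane and Cxcr2 on none. T cell markers gave 2 of 7, Cd3d and Lck, with Cd3e and Cd3g on no array. NK cell markers gave 2 of 6, Gzmb and Nkg7, with Klrb1a, Ncr1, Prf1 and Klrd1 on no array. B cell markers gave 2 of 5, Cd79a at -5.46 ± 0.15 and Pax5 at -2.22 ± 0.29, while Cd79b and Ms4a1 were detected on no array. Dendritic cell markers gave 3 of 5, Zbtb46, Clec9a and Cd83, with Flt3 on 3 arrays and Xcr1 on none. Epithelial markers gave 0 of 6. Of these Sftpc passed on 1 array, and Epcam, Krt8 and Krt18 on none.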

How the data were processed

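Cy3-labelled cRNA made from 100 ng of RNA of each of 4 replicate cultures was read on Agilent one-colour arrays, per the labels' protocols. The submitters' processing notes name Agilent Feature Extraction 11.0.1.1 as the software. Its deposited fluorescence intensity is a processed signal with background already subtracted and, per the file headers, with no step that set arrays against each other. The software's own spot flags were taken over. Since a single slide carried every array, slide effects were not testable. Control spots and spots flagged as outliers were left out, and spots of a probe were averaged. The number of arrays limits the precision. The series calls the replicates biological without saying what separates them, so part of the spread between these samples may be technical. A p-value here sets the spread of a probe against the typical spread at its signal.

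Levels are log2 signal minus the 75th percentile of non-control spots. In limma 3.58.1 (R 4.3.3, with Python 3.11.15 for the rest) the residual variance of 19400 probes, those detected on every array, was set against a robust prior with a trend on signal, followed by Benjamini-Hochberg adjustment. On as many simulated probes, 200 of which had a raised SD, it recovered 0% of those raised 4 times, 42.5% of those raised 8 times (3 false calls) and 90.5% of those raised 16 times (8 false calls). Probes were named by RefSeq accession (23863), symbol (5124) or older symbol (351), and 16260 kept the array's own name.

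The genes, the 7 pathway lists, the 7 marker lists and the rules were chosen with earlier results of these data known. The genes named are the beta2 integrins, the first 4 of each list with a probe, list genes detected or undetected where 4 or fewer were, list genes past the variance test, and the 5 genes most like Itgam. Itgax, the neighbours of Itgam, its probe A_44_P1160533, the marker S100a8 and the list genes Coro1a and Cd14 were added after their values were seen. Some list genes that this rule would name are not reported here. Alternatives were other flags, background corrections, scales, probe rules, priors and a left-out replicate.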

Additional observations from a re-analysis of the deposited data

Results flagged for a closer look

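In 91 profiles over the 4 arrays (members, neighbours, like genes and detected list genes), Dixon's test compared the distance between an extreme array and its nearest neighbour with the whole range, at the 95% critical value for 4 arrays. Chance flags about 1 in 20 profiles that were not chosen on their values, or 4.55 of 91, and 4 were found. The beta2 integrins, the neighbours and the like genes were chosen on these values, so 4.55 is only a guide. None of the 5 beta2 integrin probes was among the 4, from which nothing is read. Zyx, of the cytoskeletal link, was highest on replicate 4, at 1.86 against 1.39 to 1.46 on the other arrays (distance 0.837 of the range). Csf1r was lowest on replicate 2, at -0.16 against 0.02 to 0.04 (0.902). Gzmb was highest on replicate 3, at -4.45 against -4.82 to -4.75 (0.832). Clec9a was highest on replicate 2, at -4.03 against -4.49 to -4.43 (0.872).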

How the results depend on the processing

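No paired analysis was possible because replicate numbers pair nothing within a single group. The count of beta2 integrin genes detected on all arrays was 3, and it was 4 with the positive and significant flag and with detection on at least 2 arrays, and 3 to 4 when single replicates were dropped (4 without replicate 3). The pathway genes detected numbered 53 to 62 under the other flags and rules, against 56, and 56 to 57 when single replicates were dropped. The 2.70-fold range of Itgam was 2.26 to 2.99-fold under other scales, background corrections and probe rules, and 1.98 to 2.70-fold when single replicates were dropped (1.98-fold without replicate 4). Its log2 range was 0.99 to 1.44 there. The probe A_44_P1160533 was added after seeing the data.

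Of the beta2 integrin probes, which were chosen on these values, 0 were past the threshold of limma's variance fit. That count was 2 with normexp, 1 with the median of detected probes as scale, 4 when dim probes were also kept (1121 calls among 45588 probes), and 0 to 1 when single replicates were dropped, the 1 without replicates 1 or 2. These counts describe the fit and are no test of the genes. Unadjusted, 1261 of all probes had p below 0.05. For these changes the cause was not tested. The log2 range of Itgb2, 0.53, was 0.26 without replicate 4 and 0.85 on the spike-in scale. Normexp narrowed the range of Itgal to 1.95-fold. The range of Itgad rests on replicate 3, where its spot was not well above background, and was 1.25-fold without it. Itgal and Itgad lie close to background, where 1 spot per array limits what can be read.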
